A study of Mus musculus with 15 samples.

Results

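A panel of macrophage and myeloid cell genes was followed in the aorta of mice infused with angiotensin II (AngII), a peptide hormone that constricts vessels and raises blood pressure. The panel holds 43 symbols for 42 genes, because Emr1 is an older name of Adgre1. A gene counted as measured where a probe set, the group of short DNA probes that stands for 1 transcript on the array, carried its symbol and no other. This was so for 37 of the 42 genes, each with 1 probe set, out of 12848 gene symbols and 15095 probe sets in the deposited table. The table may hold only part of the array, because how its probe sets were chosen is not stated. The 37 genes were split into 7 markers of resident macrophages (Lyve1, Folr2, F13a1, Cbr2, Stab1, Cd163 and Mrc1) and 30 other members. Ms4a6d, Clec4n, Clec10a, Samsn1 and Evi2a were not analysed here.

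AngII was infused into 8 mice at 1 µg/kg/min from an implanted osmotic pump for 3 weeks, and 7 mice carried pumps with physiological saline (vehicle) for the same time. Both groups were 2 months old and of the strain that the labels write as C57BL6, with no mutation or transgene named. The whole aorta was opened, rinsed of blood and cleaned of fat and loose connective tissue, and each mouse gave 1 Affymetrix array. The question put to these arrays was which transcripts change in the vessel wall during AngII hypertension.

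Macrophages of the arterial wall live mainly in its outer layer, the adventitia. Some are resident cells that take up debris, hyaluronan and iron-bearing proteins through receptors such as Lyve1, Stab1, Mrc1 and Cd163, and others come from blood monocytes that enter the wall. The receptor Csf1r, which binds the growth factors CSF1 and IL-34, keeps both kinds alive, and the transcription factor PU.1, encoded by Spi1, switches on many of the genes by which myeloid cells are known. The aorta was measured as a bulk tissue, so more macrophages and more RNA of these genes in each macrophage cannot be told apart.

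Median log2 signals of the arrays ran from 7.16 to 7.28. The arrays least like the rest were AngII 8, AngII 5 and vehicle 1, with a median r of 0.954, 0.959 and 0.959. The sample names fall into 2 series, A with 3 AngII and 2 vehicle arrays and B with 5 of each group, and what the series stand for is not given. The mean log2 signal over 7 smooth muscle genes, among them Myh11 and Acta2, was 11.5 to 12.2 in AngII arrays and 11.9 to 12.4 in vehicle arrays. The mean of 10 adipocyte genes varied between arrays, at 8.22 to 10.4 in AngII and 7.78 to 10.6 in vehicle arrays. Its part in the results was tested only as a covariate.

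Because PU.1 is itself a member, the windows around the transcription start of the members were searched for GAGGAAG, a form of its purine-rich core, on either strand. Each window, taken from RefSeq on the GRCm38.p6 build, covers 250 bases before and 50 bases after the annotated start. Of the 37 measured members 25 were matched by symbol. Mpeg1, on chr19:12460520-12460819 (plus strand), is shown because it changed most of all members, and its window holds no copy.
Mpeg1: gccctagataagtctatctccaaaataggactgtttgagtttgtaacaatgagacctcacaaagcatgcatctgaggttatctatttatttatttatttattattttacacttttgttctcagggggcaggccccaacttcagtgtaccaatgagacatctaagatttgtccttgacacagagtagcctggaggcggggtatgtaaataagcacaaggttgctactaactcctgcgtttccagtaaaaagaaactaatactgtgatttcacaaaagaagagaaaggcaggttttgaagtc
Laptm5, on chr4:130913066-130913365 (plus strand), is shown as the 1 of 11 matched members higher in AngII arrays whose window holds the motif, read on the minus strand 39 bases before the start (CTTCCTC in capitals).
Laptm5: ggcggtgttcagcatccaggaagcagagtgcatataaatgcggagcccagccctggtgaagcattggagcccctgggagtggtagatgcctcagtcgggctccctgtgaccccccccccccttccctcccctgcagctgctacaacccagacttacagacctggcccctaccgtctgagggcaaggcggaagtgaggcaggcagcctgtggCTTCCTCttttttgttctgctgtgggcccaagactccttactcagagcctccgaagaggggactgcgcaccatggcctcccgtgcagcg
The resident marker Mrc1, on chr2:14229164-14229463 (plus strand), has a pair of copies on the minus strand, 168 and 36 bases before the start.
Mrc1: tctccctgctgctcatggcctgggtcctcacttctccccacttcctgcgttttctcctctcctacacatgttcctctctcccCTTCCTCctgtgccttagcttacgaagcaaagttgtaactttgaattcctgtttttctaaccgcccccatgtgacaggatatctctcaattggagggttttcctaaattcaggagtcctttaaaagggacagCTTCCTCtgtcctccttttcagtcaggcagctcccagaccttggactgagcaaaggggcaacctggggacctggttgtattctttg
Cbr2, on chr11:120731972-120732271 (minus strand), is the resident marker with the lowest fold change and holds 1 copy in the sense direction 79 bases before its start.
Cbr2: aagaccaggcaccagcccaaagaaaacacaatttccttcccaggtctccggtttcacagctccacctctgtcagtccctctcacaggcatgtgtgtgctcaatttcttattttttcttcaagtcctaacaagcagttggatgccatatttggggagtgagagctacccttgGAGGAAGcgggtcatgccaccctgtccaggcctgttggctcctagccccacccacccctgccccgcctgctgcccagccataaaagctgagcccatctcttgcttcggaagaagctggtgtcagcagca
The motif was found in the windows of 6 of the 25 matched members (24.0%), namely Cd53, Laptm5, Itgam, Mrc1, Cbr2 and F13a1. The share was 15.4% over all genes of the table. Of the matched members that were higher in AngII arrays 1 of 11 held it (9.09%), and of the resident markers 3 of 6. These letters are a description of the windows and not of binding.

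Among the 30 members other than the resident markers, 14 were higher in AngII than in vehicle aortae and 0 were lower at an adjusted p under 0.05 (limma, Benjamini-Hochberg over all probe sets). Over all probe sets 2.42% were called higher and 2.91% lower. Each of the 30 had a positive fold change, as had 47.4% of all probe sets, and 27 of them were higher and 0 lower at an unadjusted p under 0.05, where 9.29% of all probe sets were higher, 12.6% were lower and 21.9% differed in either direction. Their median log2 fold change was 0.55 (from 0.055 for Tlr4 to 1.50 for Mpeg1), and the median over all probe sets was -0.0085. Of the 30 members 21 had a mean log2 signal below 7.23, the median over all probe sets. The vehicle means of Aif1, Cd48, Cd52 and Mpeg1 were 5.43, 5.48, 5.48 and 5.57. These lie near the low end of the table, where the B cell gene Pax5, at a mean of 5.50, ranked at the 0.364 percentile. Whether these genes would be in the table by their vehicle arrays alone cannot be told. Significance analysis of microarrays (SAM) at Q = 0, the criterion of the study's methods, was recomputed here with 100 permutations. It called 4 of the 30 higher (Spi1, Mpeg1, Aif1 and Lgals3) and 0 lower, and 0.795% of all probe sets higher and 0.623% lower. Cd68 had a Q of 0.479% here. The study chose Cd68 from its own genes at Q = 0 for quantitative PCR, so the recomputed list differs from the study's. Single arrays moved the count of 14 to 5 without vehicle 5, where 1.13% of all probe sets were called higher, and to 8 without vehicle 2 (1.38%). It was 9 without vehicle 7 (1.47%) or AngII 5 (1.56%). Without AngII 8, AngII 5 and vehicle 1 together, a setting chosen after the data had been seen, 15 were called (1.75% of all probe sets). None of the 7 resident markers was called in either direction by limma or by SAM. At an unadjusted p under 0.05, 1 of the 7 was higher (Mrc1) and 1 lower (Cbr2), and their median log2 fold change was 0.17.

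The mean shift of the 30 members from their vehicle means was 0.25 to 1.24 in AngII arrays and -0.28 to 0.28 in vehicle arrays on the log2 scale. AngII 8 was the highest AngII array for 24 of the 30 members and for 1 of the 7 resident markers. Vehicle 1 was the highest vehicle array for 24 of all 37 members, and vehicle 5 or vehicle 7 the lowest for 26. The adipocyte mean was also highest in vehicle 1 (10.6) and lowest in vehicle 5 and vehicle 7 (7.78 and 7.83) among the vehicle arrays. The array medians too were lowest in vehicle 7 and vehicle 5, at 7.16 and 7.18, with vehicle 1 at 7.26 and vehicle 3 highest at 7.28. The part of the adipocyte mean and of the array medians in this order was not tested. The shares of all probe sets with the same highest or lowest array were not computed. The mean shift of the resident markers was -0.082 to 0.41 in AngII arrays and -0.32 to 0.33 in vehicle arrays, so that the groups overlapped.

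**Figure D1:**
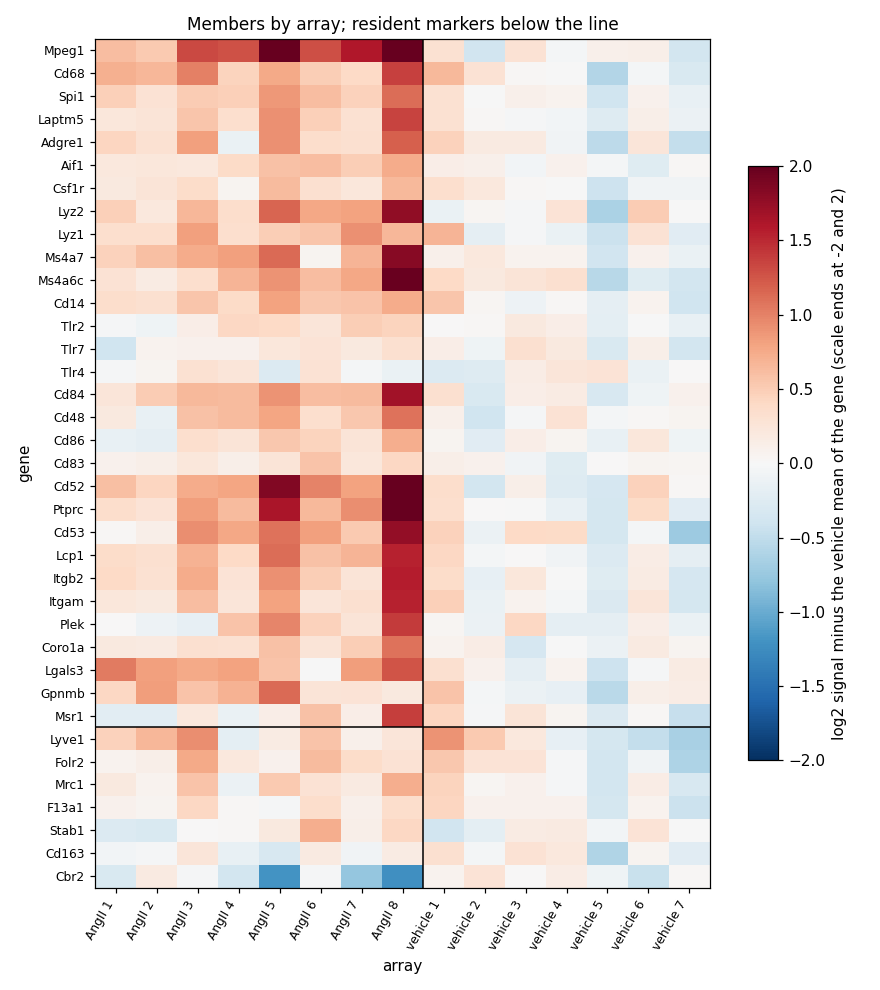
Log2 signal of each of the 37 measured members (rows, resident markers below the line) in each array (columns, 8 AngII arrays left of 7 vehicle arrays), as the difference from the vehicle mean of the gene. Values beyond the colour scale take its end colour, and the mean over the 30 upper rows is 0.25 to 1.24 in AngII arrays and -0.28 to 0.28 in vehicle arrays.

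Of the 7 genes of macrophage identity and lineage, 5 were higher in AngII aortae and 0 lower. Mpeg1, which encodes the pore-forming perforin-2 of phagocytes, had a log2 signal of 6.09, 6.88 and 8.64 (lowest, median and highest) in AngII arrays and 5.18, 5.67 and 5.87 in vehicle arrays. Every AngII array lay above every vehicle array, as for 0.55% of all probe sets, and AngII 8 was the highest. Mpeg1 was 2.82-fold higher, with a log2 fold change of 1.50 (95% interval 0.86 to 2.13, limma adjusted p = 0.0121, exact two-sided permutation test p = 0.000466). Spi1, the PU.1 gene, was at 6.83, 7.04 and 7.66 in AngII arrays and 6.13, 6.61 and 6.84 in vehicle arrays. Of the AngII arrays 7 of 8 were above all vehicle arrays for Spi1. Its log2 fold change was 0.60 (standard error, SE, 0.12, limma adjusted p = 0.0109, exact permutation p = 0.000466).

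Aif1 encodes Iba1, an actin-binding protein of macrophages and microglia. Its log2 signal was 5.64, 5.87 and 6.17 in AngII arrays and 5.20, 5.45 and 5.56 in vehicle arrays, with no overlap between the groups. The mean of Aif1 over all arrays lay at the 4.85 percentile of all probe sets, near the low end of the table. The log2 fold change of Aif1 was 0.43 (SE 0.088, limma adjusted p = 0.0126, exact permutation p = 0.000622). Cd68, a glycoprotein of macrophage lysosomes, was at 8.50, 8.79 and 9.47 in AngII arrays and 7.52, 8.09 and 8.75 in vehicle arrays. The groups overlapped for Cd68, with 5 AngII arrays above all vehicle arrays. Its log2 fold change was 0.73 (SE 0.17, limma adjusted p = 0.0219), and the call ended without vehicle 5 (adjusted p = 0.0509).

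Laptm5, a lysosomal membrane protein of white blood cells, had a log2 fold change of 0.56 (limma adjusted p = 0.0401). Its call ended without any 1 of vehicle 2 to 7, AngII 3 and AngII 5 (adjusted p from 0.0537 to 0.0942). Adgre1, which encodes the macrophage antigen F4/80, and the receptor Csf1r had log2 fold changes of 0.52 and 0.33 and did not pass the threshold (adjusted p = 0.116 and 0.0833 from limma). Csf1r passed it without vehicle 1 (adjusted p = 0.0362).

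Both lysozyme genes, whose products cut bacterial cell walls, were higher in AngII aortae. Lyz2, the lysozyme of macrophages, had a log2 signal between 10.1 and 11.7 in AngII arrays and between 9.25 and 10.4 in vehicle arrays, and a log2 fold change of 0.78 (limma adjusted p = 0.0383). Lyz1, best known from the Paneth cells of the gut, changed by 0.55 (adjusted p = 0.0342). The call of Lyz2 ended without vehicle 2, 3, 4, 5 or 7 or AngII 3, 5 or 7 (adjusted p from 0.0531 to 0.0900), and that of Lyz1 without the same vehicle arrays or AngII 3, 5, 7 or 8 (0.0545 to 0.0821). The coding sequences of the pair are nearly alike, so the signal of the probe sets may be shared and their split is uncertain.

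Of the MS4A family, membrane-spanning proteins of which several mark macrophages, Ms4a7 was higher. Its log2 signal was 6.58, 7.24 and 8.35 in AngII arrays and 6.14, 6.60 and 6.74 in vehicle arrays. All AngII arrays but AngII 6 were above every vehicle array. Ms4a7 had a log2 fold change of 0.79 (SE 0.19, limma adjusted p = 0.0256, exact permutation p = 0.00124), and its call ended without vehicle 5, vehicle 7 or AngII 5 (adjusted p from 0.0515 to 0.0622). Ms4a6c had a log2 fold change of 0.72 with an SE of 0.23 and did not pass the threshold (adjusted p = 0.0787).

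**Figure D2:**
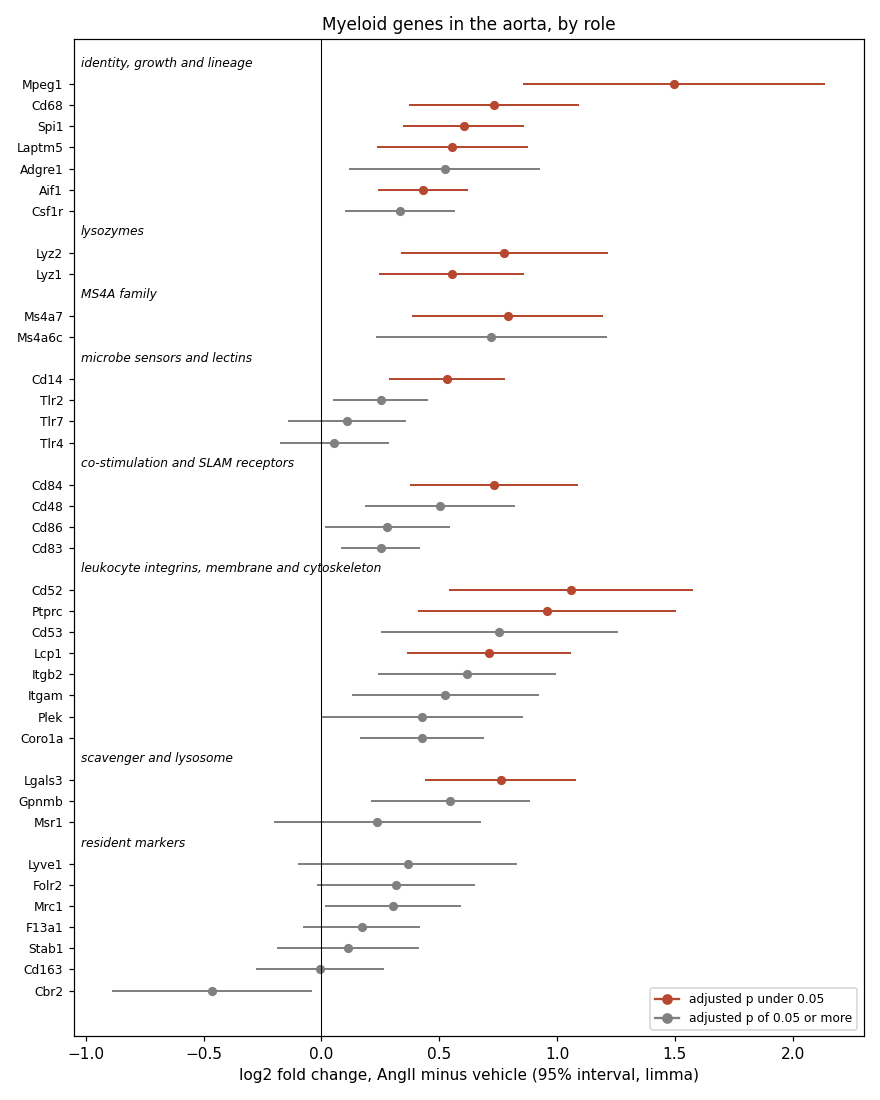
Log2 fold change, AngII minus vehicle, of the 37 measured members grouped by role, with its 95% interval from limma (horizontal bars) for 8 AngII against 7 vehicle arrays. Red marks the 14 members with an adjusted p under 0.05, and grey the others, with all 7 resident markers among the grey.

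Among the 4 measured sensors of microbes 1 was higher. Cd14, the co-receptor that hands lipopolysaccharide to Tlr4, had a log2 signal of 6.65, 6.87 and 7.12 in AngII arrays and 5.93, 6.35 and 6.88 in vehicle arrays. Vehicle 1 lay within the AngII range and the other vehicle arrays below it. The log2 fold change of Cd14 was 0.53 (SE 0.11, limma adjusted p = 0.0161, exact permutation p = 0.0014). The log2 fold change was 0.25 for Tlr2, a receptor for bacterial lipoproteins (adjusted p = 0.126), 0.11 for the RNA sensor Tlr7 (95% interval -0.14 to 0.36) and 0.055 for Tlr4 (95% interval -0.17 to 0.28).

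Of the 4 co-stimulatory and SLAM receptors, which act in contacts between immune cells, Cd84 was higher. Its log2 signal was 5.97, 6.36 and 7.41 in AngII arrays and 5.41, 5.82 and 6.05 in vehicle arrays. Of the AngII arrays 7 of 8 were above all vehicle arrays. Cd84 had a log2 fold change of 0.73 (SE 0.17, limma adjusted p = 0.0207, exact permutation p = 0.000466), which lost its call without vehicle 2 or 5 (adjusted p from 0.0501 to 0.0532). Not past the threshold were the SLAM protein Cd48, with a log2 fold change of 0.50 (adjusted p = 0.0599), the CD28 ligand Cd86, with 0.28 (adjusted p = 0.194), and Cd83, known from mature dendritic cells, with 0.25 (limma adjusted p = 0.0682). Cd48 passed the threshold without AngII 2 (adjusted p = 0.0157).

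Of the 8 leukocyte integrins, membrane proteins and cytoskeletal proteins, 3 were higher in AngII aortae. Cd52, a small surface glycoprotein of leukocytes, had a log2 signal of 5.91, 6.28 and 7.73 in AngII arrays and 5.12, 5.50 and 5.94 in vehicle arrays. AngII 2 alone among the AngII arrays fell within the vehicle range. Cd52 was 2.08-fold higher, a log2 fold change of 1.06 (SE 0.24, limma adjusted p = 0.0214, exact permutation p = 0.000466), and lost its call without vehicle 2 or 5 (adjusted p from 0.0509 to 0.0539). Lcp1, the actin-bundling L-plastin, was at 8.01, 8.32 and 9.23 in AngII arrays and 7.42, 7.64 and 8.10 in vehicle arrays. Only vehicle 1 reached into the AngII range for Lcp1. Its log2 fold change was 0.71 (SE 0.16, limma adjusted p = 0.0206, exact permutation p = 0.0014), and the call ended without vehicle 5 (adjusted p = 0.0528).

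Ptprc, which encodes the pan-leukocyte phosphatase CD45, had a log2 fold change of 0.96 (SE 0.26, limma adjusted p = 0.0401). The call of Ptprc ended without vehicle 2, 3, 4, 5 or 7 or AngII 3, 5 or 7 (adjusted p from 0.0594 to 0.0925). The other 5 were not called. The log2 fold change was 0.76 for the tetraspanin Cd53 and 0.62 and 0.52 for Itgb2 and Itgam, the chains of the integrin Mac-1 (adjusted p = 0.0728, 0.0516 and 0.109). It was 0.43 both for Coro1a, an actin regulator of leukocytes, and for Plek, a kinase substrate of platelets and leukocytes (adjusted p = 0.0524 and 0.223). Itgb2 passed the threshold without vehicle 1 or AngII 2, 4, 6 or 8 (adjusted p from 0.0353 to 0.0495), Coro1a without AngII 1, 2, 6 or 8 (0.0405 to 0.0497) and Cd53 without AngII 1 or 2 (0.0443 to 0.0451).

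Of the 3 scavenger and lysosomal genes Lgals3, encoding the sugar-binding galectin-3 that macrophages secrete, was higher. Its log2 signal was 6.12, 6.93 and 7.39 in AngII arrays and 5.71, 6.19 and 6.44 in vehicle arrays. AngII 6 was the only AngII array within the vehicle range. Lgals3 had a log2 fold change of 0.76 (SE 0.15, limma adjusted p = 0.0109, exact permutation p = 0.00109). Gpnmb, a membrane glycoprotein of lipid-laden macrophages, had a fold change of 0.55 in log2 units (adjusted p = 0.0541), and passed the threshold without vehicle 1 or AngII 6 (adjusted p from 0.0189 to 0.0375). For the class A scavenger receptor Msr1 it was 0.24 (95% interval -0.20 to 0.67, adjusted p = 0.536).

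**Figure D3:**
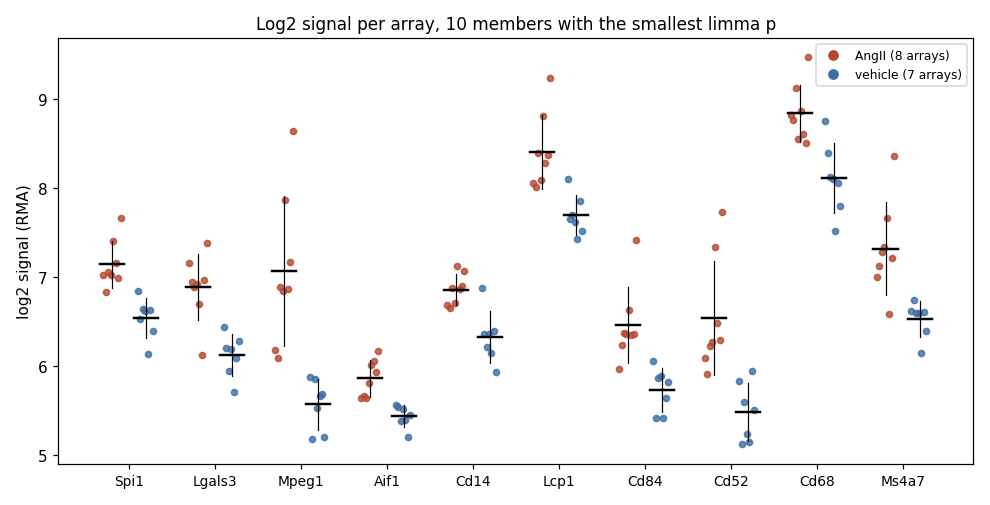
Log2 signal of the 10 members with the smallest limma p, 1 point per array, in 8 AngII arrays (red, left of each pair) and 7 vehicle arrays (blue, right), with the mean (bar) and SD (line). Mpeg1 and Aif1 are the members of these 10 whose groups do not overlap.

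The resident markers were described separately. Mrc1, the mannose receptor, had a log2 signal of 8.55, 8.91 and 9.39 in AngII arrays and 8.29, 8.71 and 9.11 in vehicle arrays. The groups overlapped over most of their range, and the log2 fold change was 0.30 (95% interval 0.019 to 0.59, limma adjusted p = 0.197, exact permutation p = 0.0592). Lyve1, a hyaluronan receptor that lymphatic endothelium also carries, was at 8.80, 9.34 and 9.91 in AngII arrays and 8.34, 8.82 and 9.89 in vehicle arrays. Vehicle 1 was close to the highest AngII array for Lyve1, and the log2 fold change was 0.37 (95% interval -0.094 to 0.83, adjusted p = 0.343). Folr2, the folate receptor beta, was at 8.64, 8.81 and 9.31 in AngII arrays and 7.95, 8.55 and 9.10 in vehicle arrays, with a log2 fold change of 0.32 (95% interval -0.013 to 0.65).

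F13a1, the A subunit of coagulation factor XIII, was at 9.40, 9.51 and 9.83 in AngII arrays and 8.99, 9.51 and 9.85 in vehicle arrays. Its medians differed by less than the spread of either group, and its log2 fold change was 0.17 (95% interval -0.073 to 0.41). The scavenger receptor Stab1 was at 8.25, 8.63 and 9.28 in AngII arrays and 8.19, 8.55 and 8.84 in vehicle arrays, a log2 fold change of 0.11 (95% interval -0.18 to 0.41). Cd163, the receptor for haemoglobin bound to haptoglobin, was at 6.89, 7.17 and 7.45 in AngII arrays and 6.62, 7.26 and 7.53 in vehicle arrays. The vehicle range enclosed the AngII range for Cd163, whose log2 fold change was -0.0065 (95% interval -0.27 to 0.26). The interval does not show that Cd163 was the same in both groups.

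Cbr2, a carbonyl reductase that marks tissue-resident macrophages, had a log2 signal of 10.4, 11.3 and 11.8 in AngII arrays and 11.1, 11.6 and 11.9 in vehicle arrays. AngII 8 and AngII 5 were the lowest arrays. The log2 fold change of Cbr2 was -0.46 (95% interval -0.89 to -0.044, limma adjusted p = 0.183, exact permutation p = 0.0581). The mean log2 signal of Cbr2, 11.3, lay at the 98.9 percentile of all probe sets, and that of Csf1r, 8.86, at the 85.5 percentile. AngII 5 and AngII 8 were also the lowest AngII arrays for the smooth muscle genes Myh11, Acta2, Tagln, Cnn1, Lmod1 and Myocd. For Smtn the lowest were AngII 5 and AngII 6. Cbr2 is also made outside macrophages, in the lung for example, and the cells it came from were not tested.

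**Figure D4:**
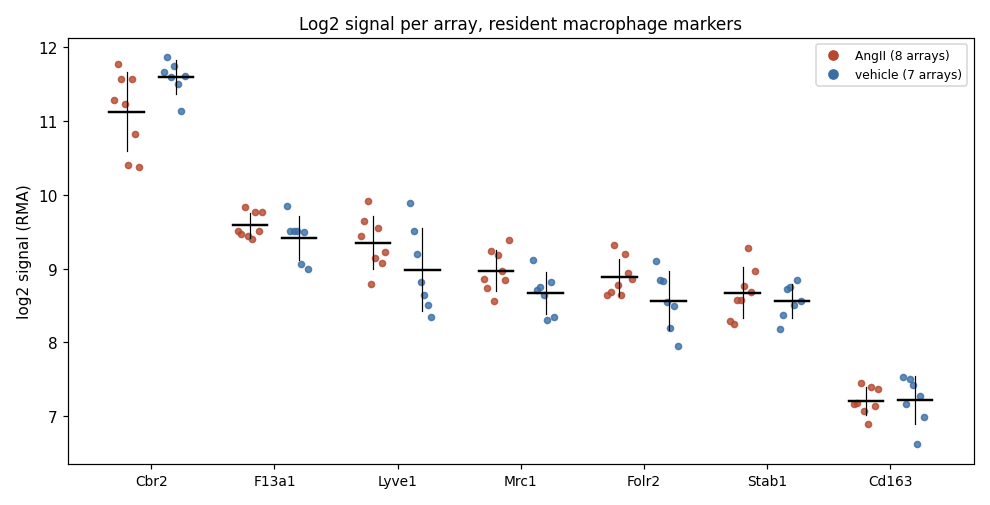
Log2 signal of the 7 resident markers, 1 point per array, in 8 AngII arrays (red, left of each pair) and 7 vehicle arrays (blue, right), with the mean (bar) and SD (line). The groups overlap for each of the 7 markers, and the lowest Cbr2 value is 10.4 in AngII arrays and 11.1 in vehicle arrays.

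To set the members against a single macrophage gene, the log2 signal of Csf1r was subtracted from every probe set in each array and all probe sets were tested again, a comparison chosen after the data had been seen. The step moved the median of all probe sets to -0.34, and 0.676% of them were then higher and 46.5% lower. Csf1r had the smallest fold change of the 7 identity genes, 0.33 in log2 units, below the median of 0.55 for the 30 members. Positive values relative to it therefore follow in part from this choice. All these tests also share the 1 Csf1r probe set, so they are not independent of each other. Relative to Csf1r, 9 of the 29 other members were higher and 0 lower (limma). Mpeg1 changed by 1.16 relative to Csf1r (adjusted p = 0.00315), Cd52 by 0.72 (adjusted p = 0.0117) and Ptprc by 0.62 (adjusted p = 0.0190). Ms4a7, Lyz2, Lgals3, Cd84, Cd68 and Lcp1 changed by 0.46, 0.44, 0.43, 0.40, 0.40 and 0.38. Of the 7 resident markers 0 were higher and 2 were lower relative to Csf1r, Cbr2 by -0.80 (adjusted p = 0.0149) and Cd163 by -0.34 (adjusted p = 0.0483). The value of Cd163 equals the shift of the median probe set to 2 decimals. Mrc1, Folr2 and Lyve1 lay at -0.030, -0.018 and 0.031 relative to Csf1r.

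Within the groups, some members varied together from array to array. Deviations from the group means were correlated over the 15 arrays for 8 pairs of genes, with p-values from permutation tests adjusted over the 8. Csf1r followed Cd68 (r = 0.861, rho = 0.896, adjusted permutation p = 0.000427 and 0.0002), Adgre1 (r = 0.870, rho = 0.889, 0.00016 and 0.0004) and the resident marker Mrc1 (r = 0.858, rho = 0.900, 0.000427 and 0.0002). When the 2 arrays with the most extreme Csf1r deviations were dropped, these values of r were 0.757, 0.838 and 0.792, and within naming series B they were 0.844, 0.885 and 0.878. Series A holds 5 arrays, too few for an r to be read, so none is given for it. The values over the 15 arrays took no account of the series. Csf1r with Lyve1 gave r = 0.527 and rho = 0.571 (adjusted permutation p = 0.117 and 0.0601), with r at 0.322 without those 2 arrays and 0.363 in series B. Csf1r with Cbr2 gave r = -0.296 and rho = -0.136 (adjusted permutation p = 0.284 and 0.639), with r at -0.464 without the 2 arrays and -0.531 in series B.

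Cd68 with Mpeg1 gave r = 0.421 and rho = 0.371 (adjusted permutation p = 0.159 and 0.231), with r at -0.0719 without the 2 arrays farthest in Cd68 and 0.808 in series B. Lyz1 with Lyz2 gave r = 0.366 and rho = 0.527 (adjusted permutation p = 0.193 and 0.0866), with r at 0.648 without the 2 arrays farthest in Lyz1 and 0.590 in series B. Cbr2 with Adipoq, the adipocyte hormone adiponectin, gave r = -0.344 and rho = -0.271 (adjusted permutation p = 0.193 and 0.323), with r at -0.260 without the 2 arrays farthest in Cbr2 and -0.551 in series B. None of these 3 pairs passed the threshold.

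The fold changes were also computed within the naming series. In series B the median log2 fold change of the 30 members was 0.72, with 29 of them positive, 27 at an unadjusted p under 0.05 and 13 called after adjustment. Of all probe sets in that fit 46.6% were positive, 9.37% were higher at an unadjusted p under 0.05 and 1.37% were called higher. In series A the median was 0.22, with 24 positive, 6 at an unadjusted p under 0.05 and 0 called, over 3 AngII and 2 vehicle arrays (limma). The shares of all probe sets there were 47.1% positive, 5.32% higher at an unadjusted p under 0.05 and 0.0464% called higher. The log2 fold change of Aif1 was 0.61 in series B and 0.098 in series A, that of Cd14 0.72 in B and 0.12 in A, that of Ms4a6c 1.11 in B and -0.031 in A, and that of Lgals3 0.77 in B and 0.67 in A. For 29 of the 30 members the value was larger in B, and Tlr4 was the exception. The interaction of group and series passed the threshold for no probe set, while 7 of the 37 members had an unadjusted interaction p under 0.05, as had 6.39% of all probe sets. The smallest were those of Aif1 and Cd14, with an adjusted p of 0.729 for both.

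Laptm5, Lyz2, Ms4a7 and Lgals3 lost their call in series B alone (adjusted p from 0.0559 to 0.0713), where Ms4a6c, Tlr2 and Cd48 gained one. The values of these 4 in series B, in log2 units, were 0.75 for Laptm5, 0.95 for Lyz2, 0.96 for Ms4a7 and 0.77 for Lgals3, against 0.56, 0.78, 0.79 and 0.76 over all 15 arrays. The resident markers had a median of 0.27 in series B and -0.076 in series A. In series B 4 of them had an unadjusted limma p under 0.05, and none was called after adjustment. Lyve1, Folr2 and Mrc1 were higher there by 0.46, 0.48 and 0.42 (limma unadjusted p = 0.0178, 0.0106 and 0.0218), where 9.37% of all probe sets were higher at an unadjusted p under 0.05. Cbr2 was lower there, at -0.64 (limma unadjusted p = 0.0123). In series A 0 resident markers had an unadjusted p under 0.05. Lyve1 was 0.72 lower and Stab1 0.45 higher in series B than in series A in a fit with the group (adjusted p = 0.0160 and 0.0286), and 3.05% of all probe sets differed between the series. The endothelial genes Pecam1, Vwf, Tie1, Tek and Cdh5 were also higher in series B, by 0.64 to 1.12 (limma adjusted p from 0.000849 to 0.0458). Kdr and Emcn did not differ at the threshold (adjusted p = 0.608 and 0.528). The cells that the Stab1 signal came from were not tested. With the adipocyte mean entered in the fit 11 of the 30 members were called higher, as were 1.98% of all probe sets. Laptm5, Lyz2 and Ptprc were the members that lost the call there (adjusted p = 0.0708, 0.0676 and 0.0688). Their changes in log2 units were 0.49, 0.71 and 0.83 with it, against 0.56, 0.78 and 0.96 without it.

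**Figure D5:**
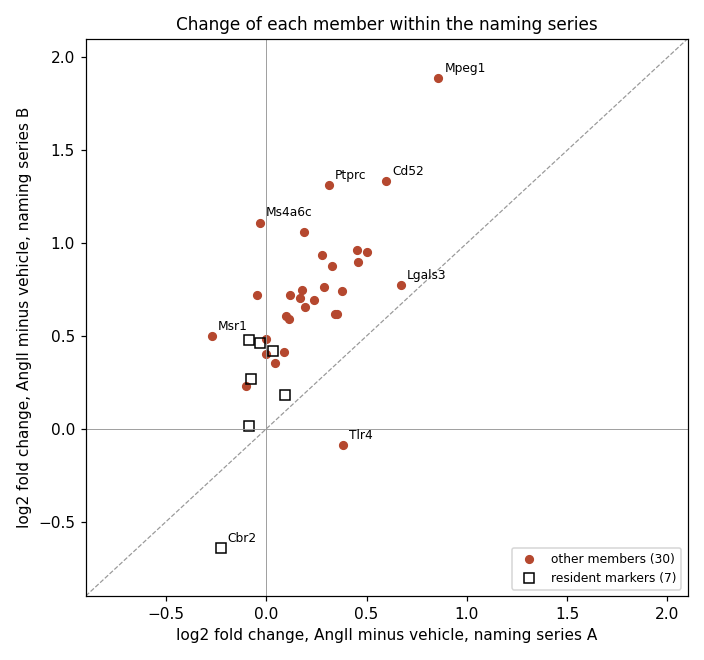
Log2 fold change, AngII minus vehicle, of each of the 37 members within naming series B (vertical axis, 5 AngII and 5 vehicle arrays) against that within naming series A (horizontal axis, 3 AngII and 2 vehicle arrays). Circles are the 30 other members, 29 of which lie above the dashed line of equal change, and squares are the 7 resident markers.

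Lists of genes that act around the macrophage were counted in the same fit, where 2.42% of all probe sets were called higher and 2.91% lower. Of 10 measured genes of monocyte recruitment and growth signals 1 was higher and 0 lower, Cx3cr1, the fractalkine receptor of patrolling monocytes and tissue macrophages. Cx3cr1 was at 6.96 to 7.47 in AngII arrays and 6.52 to 6.94 in vehicle arrays, with no overlap and a log2 fold change of 0.44 (limma adjusted p = 0.0126). The chemokines Ccl2 and Ccl7, which draw monocytes out of the blood, had fold changes of 0.38 and 0.47 in log2 units (adjusted p = 0.169 and 0.191), and the adhesion receptor Vcam1 one of 0.59 (adjusted p = 0.145). For Csf1 and Csf2, growth factors of macrophages and granulocytes, the values were -0.18 and -0.29 (adjusted p = 0.235 and 0.251). The median of the list was 0.29.

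Of 8 measured myeloid transcription factors besides Spi1, Runx1 was higher and 0 were lower. Runx1, which acts with PU.1 in blood cell development and is also expressed in stroma, had a log2 fold change of 0.79 (limma adjusted p = 0.0129). For Irf8, a factor of the monocyte lineage, it was 0.37 (adjusted p = 0.148), and the median of the list was 0.27. Of 4 measured genes of inflammatory output Ptgs2, the prostaglandin synthase COX-2, was higher by 1.03 (adjusted p = 0.0027), with 8.05 to 8.96 in AngII arrays and 7.20 to 8.28 in vehicle arrays. Of 10 genes of alternative activation and efferocytosis Igf1, a growth factor that fibroblasts and smooth muscle make as well, was higher by 0.82 (adjusted p = 0.0123). Mertk and Axl, the receptors for dying cells, had fold changes of -0.18 and -0.20 in log2 units (adjusted p = 0.262 and 0.113). The list medians were 0.35 for inflammatory output and 0.16 for alternative activation, and 0 genes of either list were called lower.

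Among the 10 measured genes of lipid-associated macrophages 4 were higher and 0 lower, against 2.42% of all probe sets higher, and the median was 0.39. Tyrobp, the signalling adaptor DAP12, was at 7.13 to 8.28 in AngII arrays and 6.33 to 7.03 in vehicle arrays, without overlap. Its log2 fold change was 0.77 (SE 0.15, limma adjusted p = 0.0102). Its partner receptor Trem2 changed by 0.57 (adjusted p = 0.0138), the lipid carrier Apoe by 0.41 (adjusted p = 0.0249) and the lysosomal tetraspanin Cd63 by 0.25 (adjusted p = 0.0225). Apoe lost its call without vehicle 2 or 5 (adjusted p from 0.0562 to 0.0609) and Cd63 without vehicle 5 (0.0567). In series B alone Trem2 was 0.61, Apoe 0.50 and Cd63 0.20 higher in log2 units and none was called (limma adjusted p = 0.0506, 0.0533 and 0.137). The called genes of the other lists that lost their call in series B were Igf1 (0.85, adjusted p = 0.0519), Cx3cr1 (0.44, adjusted p = 0.0700) and Pdpn (0.58, adjusted p = 0.0758). In series A alone Ptgs2 was the gene of these lists that kept its call, at 1.45 (adjusted p = 0.0294). Cd36 and Lpl, which adipocytes and endothelium also express, had fold changes of 0.67 and 0.62 in log2 units (adjusted p = 0.373 and 0.432).

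Markers of other cells were read beside the members, and their part in the members' change was not tested. Of 11 T and NK cell markers 1 was measured. Nkg7, a granule protein of cytotoxic lymphocytes, was at 6.39 to 6.70 in AngII arrays and 5.94 to 6.53 in vehicle arrays, and was higher by 0.43 (limma adjusted p = 0.0085). Of 7 B cell markers only Pax5 was measured, with a log2 fold change of 0.20 (adjusted p = 0.169). For neutrophils 3 of 9 markers were measured (Csf3r, Mmp9 and Cxcr2) and 0 called by limma, with 1 higher at an unadjusted p under 0.05. The neutrophil mean was 5.76 to 6.35 in AngII arrays and 5.75 to 5.92 in vehicle arrays. For dendritic cells 3 of 8 markers were measured and 0 called by limma, with 1 lower at an unadjusted p under 0.05 (Siglech), and a mean of 5.75 to 6.08 in AngII arrays and 5.83 to 6.06 in vehicle arrays. For mast cells 3 of 7 were measured, 0 called and 0 past an unadjusted p under 0.05, with a mean of 6.82 to 7.66 in AngII arrays and 6.35 to 8.14 in vehicle arrays. For platelets 4 of 5 were measured and 0 called, with 1 higher at an unadjusted p under 0.05. Their mean was 6.38 to 7.94 in AngII arrays and 6.42 to 7.54 in vehicle arrays. Ppbp was 2.01 higher in series B than in series A in a fit with the group (limma adjusted p = 0.0124). Pf4, Itga2b and Gp9 did not pass the threshold there (adjusted p = 0.554, 0.296 and 0.197). AngII 8 was the highest AngII array for Pf4, Ppbp and Itga2b, and AngII 5 for Gp9. Of 5 red cell genes only Slc4a1 was measured, with a log2 fold change of -0.011 (adjusted p = 0.970).

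The cells of the wall itself were read in the same way. Of all probe sets 47.4% had a positive fold change, 2.42% were called higher and 2.91% lower. At an unadjusted p under 0.05, 9.29% of all probe sets were higher and 12.6% lower. All 7 smooth muscle markers had a negative fold change, with a median of -0.21, and 0 were called by limma while 3 were lower at an unadjusted p under 0.05. Of 6 fibroblast markers Lum, a collagen-binding proteoglycan, and Dpt, dermatopontin, were higher by 1.02 and 0.54 (adjusted p = 0.00164 and 0.0123), and the mean of the list was 11.1 to 11.6 in AngII arrays and 10.7 to 11.1 in vehicle arrays. Of 7 endothelial markers 0 were called by limma and 1 was higher at an unadjusted p under 0.05 (Emcn), with a mean of 8.07 to 9.53 in AngII arrays and 8.40 to 9.35 in vehicle arrays. Of the lymphatic endothelial markers, which bear on Lyve1, 3 of 5 were measured and Pdpn was higher by 0.48 (adjusted p = 0.0418). The call of Pdpn, which fibroblasts make too, ended without vehicle 2, 3, 4, 5 or 7 or AngII 1, 3, 5, 7 or 8 (adjusted p from 0.0513 to 0.0975). The 10 measured of 12 adipocyte genes had a median log2 fold change of 0.57, with 0 called and 0 past an unadjusted p under 0.05 by limma.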

How the data were processed

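RNA from the aorta of 8 AngII-infused and 7 vehicle-infused mice was hybridised to Affymetrix arrays, 1 per mouse. The log2 values deposited by the authors come from robust multiarray analysis (RMA), run in Expression Console, which subtracts background, equalises the arrays and joins the probes of a set. Probe sets were named from the platform annotation. Of 15095 probe sets 13403 carry 1 symbol, and no filter was applied. The labels and the methods write the strain and the RNA kit differently.

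AngII and vehicle arrays were compared in every probe set with limma 3.58.1 (R 4.3.3). P-values were adjusted over the whole table by the method of Benjamini and Hochberg, with 0.05 as the threshold. Single members were also given an exact two-sided permutation test of the group means, for which the smallest possible p is 0.000155. The fit was first tested on simulated data. The members and the gene lists were chosen with earlier results of these data known. Every member is named, with the lowest, median and highest array for the 10 members of smallest limma p and the resident markers, and from the other lists the genes past the threshold were named by rule, the rest by choice after their values were seen. Alternatives were the naming series as a block or alone, the replicate number as a block, further normalization, a signal filter, array weights, an adipocyte covariate, SAM with 100 permutations, the methods' t-test and leaving out each array. The number of arrays limits the precision. RefSeq windows came from the GRCm38.p6 build.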

Additional observations from a re-analysis of the deposited data

Results flagged for a closer look

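In 5 of 74 groups of arrays (37 members, AngII and vehicle) the highest or lowest array stood apart by Dixon's criterion, which chance alone meets in about 1 in 20 groups, or 3.7 of these 74. AngII 8 was far above the other AngII arrays for Ms4a6c (log2 signal 8.08, the next array at 6.99), Cd84 (7.41, the next at 6.63), Itgam (8.14, the next at 7.40) and Coro1a (7.56, the next at 7.06). AngII 1 was far below the other AngII arrays for Tlr7, at 5.79, with the next array at 6.25. Without AngII 8 the call of Cd84 held (limma adjusted p = 0.0129), and Ms4a6c and Itgam were again not called, while Coro1a passed the threshold (limma adjusted p = 0.0481). Without AngII 1 the log2 fold change of Tlr7 was 0.18 (limma adjusted p = 0.328).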

How the results depend on the processing

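Of the 30 members other than the resident markers, 14 were called higher. The share of all probe sets called higher, 2.42% in the main fit, follows each count in brackets. The count was 16 with the naming series blocked (3.15%), 13 in series B (1.37%) and 0 in series A (0.0464%). It was 14 after quantile normalization (2.49%), 15 after centring on array medians (2.44%) and 18 with array weights (3.69%). With 1 mean value for each gene it was 16 (2.69% of genes), with trended and robust moderation 14 (2.42%) and with the adipocyte covariate 11 (1.98%). A mean log2 signal of at least 6 gave 14 (2.67% of the probe sets kept). That filter drops Cd48, Cd86 and Aif1, and Aif1 is one of the main 14, so the set is not the same. Leaving out 1 array gave 5 without vehicle 5 (1.13%) to 18 without AngII 2 (2.74%), with 8 without vehicle 2 (1.38%). It gave 9 without vehicle 7 (1.47%) or AngII 5 (1.56%). The methods' t-test gave 25 unadjusted (8.91% of all probe sets were higher and 12.6% lower) and 7 adjusted (1.45% higher), and SAM at Q = 0 gave 4 (0.795% higher). Without AngII 8, AngII 5 and vehicle 1, a setting chosen after seeing the data, 15 were called (1.75%). Samples with the same replicate number did not deviate together (r from -0.46 to 0.42 over 7 pairs, 4 over 0.1, and 1 pair that was its own best match), so the numbers were not taken as pairs. With the replicate block 2 members were called (0.729% of all probe sets higher). Members called lower, and resident markers called in either direction, numbered 0 in each of these settings. Changes that turned direction were all of uncalled genes. In series A the log2 fold change was -0.0029 for Csf1r, -0.031 for Ms4a6c, -0.0033 for Tlr2, -0.099 for Tlr7, -0.049 for Plek, -0.27 for Msr1, -0.029 for Lyve1, -0.087 for Folr2 and -0.076 for F13a1, and in series B it was -0.086 for Tlr4 and 0.014 for Cd163. Cd163 ranged from -0.11 to 0.047 on leaving out 1 array, was 0.0069 with array weights and 0.073 without the 3 arrays, and Stab1 was -0.014 without them. The cause of these differences was not tested.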

Other observations

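A probe set that carries the symbols of both Evi2a, a listed gene, and its neighbour Evi2b, a membrane protein of blood cells, had a log2 fold change of 0.58 (SE 0.14, limma adjusted p = 0.0263), and it cannot be assigned to either gene.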
